A study of Mus musculus with 2 samples.

Results

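The genes described are the subunits and regulators of the proteasome. They were chosen as the protein-coding genes whose mouse symbol begins with Psm, a letter from a to g and a digit, and 50 of 21461 nuclear protein-coding genes met that rule. Another 4 symbols of that pattern belong to pseudogenes, all with 0 counts. Psmc3ip is among the 50 by name only: it is not a proteasome gene, but counts over the 50 include it. The study measured total RNA, depleted of ribosomal RNA, in mouse CFU-E, the colony-forming unit of the red cell lineage, as 2 libraries of 1 group. Both came from primary cells of adult male C57BL/6J mice aged 5 to 6 weeks, with no allele or agent named, and the title of the isolation protocol names bone marrow. Each library was made from 100 ng of RNA with the ScriptSeq kit. The labels call the libraries biological replicates 1 and 2, with separate biosamples under 1 donor identifier. Whether they came from separate animals is not stated, and their spread may in part be technical. There is no second condition, no test between groups and no p-value.

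The 26S proteasome degrades proteins that carry ubiquitin chains. Its 20S core is a barrel of alpha and beta rings, and the active sites lie inside the barrel on the catalytic beta subunits. The 19S regulatory particle caps the barrel: its base holds the ring of ATPases that unfold substrates, and its lid holds the deubiquitinase that removes the chain. Interferon replaces the catalytic subunits by immunoproteasome counterparts in many cells, and other activators, PA28 and PA200, can take the place of the 19S cap. Maturing red cells lose organelles and much of their protein content, and proteasomes take part in that clearance.

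Library totals were 62576357 expected counts in replicate 1 and 36889542 in replicate 2. All 15 red cell markers examined, among them the globin genes, Gata1 and Klf1, reached 10 TPM in both libraries, with summed levels of 27782 TPM in replicate 1 and 12916 TPM in replicate 2. Markers of other blood cells were also present: 13 of 13 granulocyte genes and 9 of 11 monocyte and macrophage genes reached 1 TPM in both. Of B cell genes 4 of 9 did, a share of 44.4%, and of T and NK cell genes 3 of 9, a share of 33.3%. The share over nuclear protein-coding genes was 23.9%, and no T and NK cell gene reached 10 TPM in either library. TPM is a level per transcript length, scaled so that every library has the same sum, and most of that sum lay outside nuclear protein-coding genes. Nuclear protein-coding genes held 12.4% of TPM in replicate 1 and 7.49% in replicate 2, against 46.2% and 46.6% of counts. Levels of protein-coding genes are therefore low on this scale, and more so in replicate 2. Intervals are the lower and upper bounds that the authors deposited with each level.

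Proteasome genes were well represented. Of the 50 genes, 41 reached 1 TPM in both libraries, a share of 82%, against 23.9% of nuclear protein-coding genes. A further threshold of 10 TPM was reached in both by 8 genes, a share of 16%, against 4.79%. These 8 were Psma3, Psmb1, Psmc3, Psmc6, Psmd4, Psmd6, Psmd13 and Psme3. The median gene stood within the top 10.3% of nuclear protein-coding genes in replicate 1 and the top 7.61% in replicate 2. The median of the mean levels was 6.35 TPM, against 0.055 TPM over all nuclear protein-coding genes. Together the 50 genes held 0.307% of nuclear protein-coding TPM in replicate 1 and 0.405% in replicate 2, or 0.356% ± 0.069 (SD, n = 2). In 48 of the 50, both libraries had more than 3 counts.

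**Figure D1:**
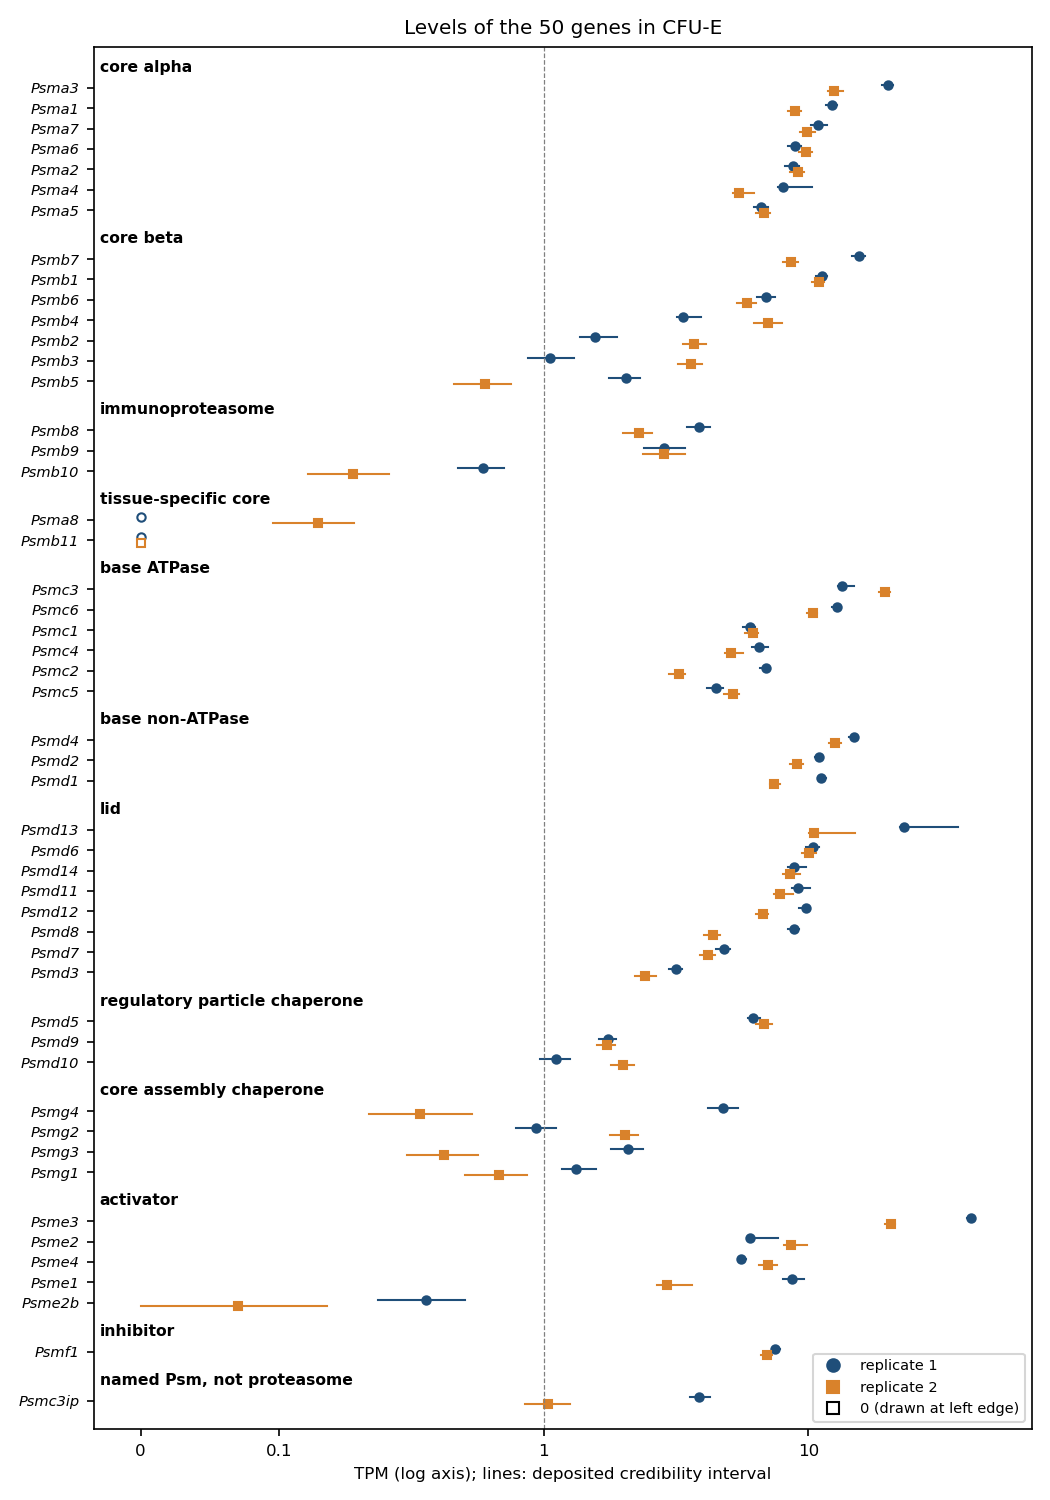
Levels in TPM (log axis) of the 50 genes by role, with replicate 1 as circles, replicate 2 as squares and the deposited credibility interval as a line; the dashed line stands at 1 TPM and open symbols mark a level of 0. The alpha subunits lie close together between 5.49 and 19.96 TPM, the beta subunits spread between 0.60 and 15.56 TPM, and Psme3 is highest.

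Promoter sequence was examined next to these levels. RefSeq promoter windows on GRCm38.p6, which run from 250 bases before to 50 bases after a start site, were found for 42 of the 50 genes, 45 windows in all. Psma8, Psmb1, Psmb2, Psmb7, Psmc3, Psmd3, Psmd7 and Psmg2 had no entry. Short letter strings, 14 in all, were searched on both strands. The ETS-type string CCGGAAG had the largest excess over windows of protein-coding genes in percentage points, though not as a multiple. It occurred in 16 of 45 windows, a share of 35.6%, against 11.6% of 21263 windows of protein-coding genes and 8.86% of all 32851 windows. It occurred in 10 of 15 windows of the regulatory particle and in 1 of 12 windows of the 20S core. ETS factors are transcription factors that bind a GGAA core. The set was small and the string was 1 of 14 searched, so the difference between particle and core is a description. The matches of the regulatory particle are shown because they carry this difference. Each line is 27 bases, read so that the match is forward, with the match in capitals and 10 bases on each side:
Psmc1, chr12:100110164-100110190, minus strand: atcgccaccgCCGGAAGtgcatccacc
Psmc2, chr5:21785181-21785207, minus strand: gagccccatcCCGGAAGtgctcactgg
Psmc2, chr5:21786713-21786739, minus strand: ctcttccccaCCGGAAGtagctccgcg
Psmc6, chr14:45329714-45329740, plus strand: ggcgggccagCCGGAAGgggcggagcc
Psmd2, chr16:20651616-20651642, minus strand: gtcctccagaCCGGAAGcgccctgcgg
Psmd4, chr3:95042723-95042749, minus strand: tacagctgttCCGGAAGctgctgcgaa
Psmd6, chr14:14120974-14121000, minus strand: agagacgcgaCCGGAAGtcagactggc
Psmd11, chr11:80428594-80428620, minus strand: aaacacacacCCGGAAGacccgccctc
Psmd12, chr11:107479501-107479527, minus strand: gtcactcgcaCCGGAAGtcgcccgctc
Psmd13, chr7:140882378-140882404, plus strand: gcccgcggtgCCGGAAGtgagcgagca

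The single core gene with the string was Psma6, an alpha subunit. Of its 2 windows, 1 held none and the other held 3 matches, 2 of them reading in the direction of the gene:
Psma6, chr12:55398683-55398709, plus strand: gagccaccacCCGGAAGcccgcggacc
Psma6, chr12:55398813-55398839, plus strand: cgccggtgctCCGGAAGcagtagccat
Psma6, chr12:55398832-55398858, minus strand: aagccccctcCCGGAAGttatggctac

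Only 1 of the 21 matches in members' windows overlapped a match to another of 7 strings compared with it, a match in the window of Psme4. A match says only that the letters are present. The loose form TGANNNNGC of the element bound by Nfe2l1 and related factors was present in 26 of 45 windows, a share of 57.8%, against 41.3% of all windows. The strict form TGACTCAGC was in 0 of 45, against 0.454% of all windows. GGGCGG, the GC box, was in 24 of 45, a share of 53.3%, against 46.2% of windows of protein-coding genes, and CCAAT was in 33.3%, against 38.2%. Against the share of windows of protein-coding genes in each case, TGCGCA, part of the NRF1 site, was in 13.3% against 9.74%, the full NRF1 site in 4.44% against 1.33%, and AAGATGGC, the YY1 site, in 6.67% against 3.05%. Other strings were the AP-1 core TGACTCA (2.22% against 4.66%), the GATA string AGATAA (6.67% against 9.65%), TATAAA (8.89% against 12.6%) and the E-box CACGTG (8.89% against 7.84%). TGACTCA lies within the strict form above, and TGCGCA reads the same on both strands. Median GC content of the members' windows was 57.3%, against 56.3% for protein-coding genes.

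**Figure D2:**
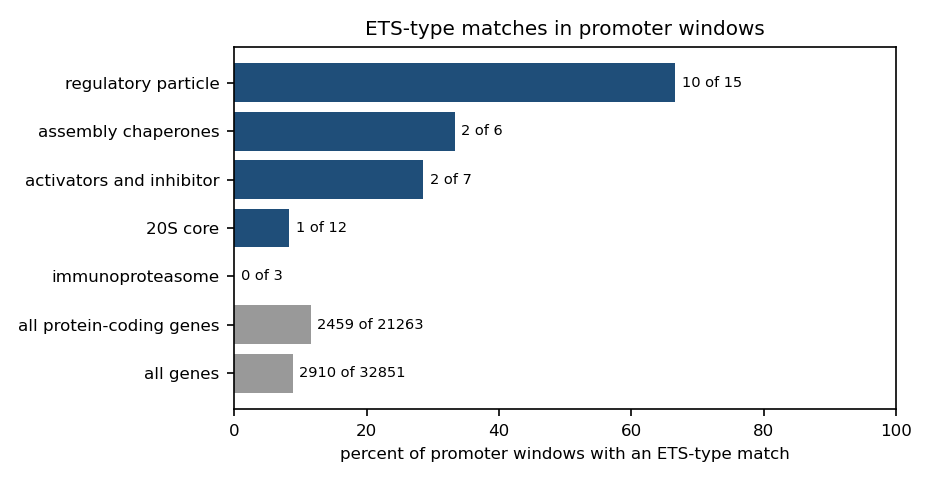
Percent of promoter windows that hold the ETS-type string, by group of members (blue) and over all windows (grey), with the number of windows beside each bar. The regulatory particle stands at 10 of 15 windows and the 20S core at 1 of 12; windows of Psmb11 and Psmc3ip are in no bar.

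The alpha ring, which gates entry to the core, was more even than the beta ring. All 7 alpha subunits stood at 5.49 TPM or above, and their median was 8.91 TPM in replicate 1 and 9.14 TPM in replicate 2. Psma3 was highest, at 19.96 TPM in replicate 1 and 12.54 TPM in replicate 2, a mean of 16.3 ± 5.25 (SD, n = 2). Psma5 was lowest in mean level, at 6.63 TPM in replicate 1 and 6.79 TPM in replicate 2. The highest alpha subunit was thus only 2.42-fold above the lowest in mean gene TPM. Psma1 (12.30 and 8.89 TPM in replicates 1 and 2), Psma7 (10.86 and 9.90), Psma6 (8.91 and 9.79), Psma2 (8.75 and 9.14) and Psma4 (8.02 and 5.49) had means between theirs, though Psma4 was the lowest of the 7 in replicate 2. Psma3 was highest in both libraries, and the order of the others changed between them. The lowest count in the group was 804, for Psma4 in replicate 2. The evenness is that of gene TPM. On protein-coding transcripts alone the alpha subunits ran from 6.05 to 12.29 TPM in replicate 1. In replicate 2 they ran from 1.16 to 9.79 TPM, with Psma3 lowest in both. The beta subunits then ran from 1.02 to 13.59 TPM in replicate 1 and from 0.60 to 11 TPM in replicate 2.

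The beta ring was much less even. Psmb7, which carries the trypsin-like site, was highest in mean level, at 15.56 TPM in replicate 1 and 8.59 TPM in replicate 2. Psmb1, a structural subunit, followed at 11.31 TPM in replicate 1 and 11 TPM in replicate 2, so the 2 exchanged places between libraries. Psmb6, the caspase-like subunit, was at 6.94 TPM in replicate 1 and 5.87 TPM in replicate 2. The other structural subunits were lower and differed between the libraries in 1 direction: Psmb4 had 3.36 TPM in replicate 1 and 7.02 TPM in replicate 2, Psmb2 had 1.57 and 3.70, and Psmb3 had 1.06 and 3.59. Psmb5, the chymotrypsin-like subunit and the main site of bortezomib binding, was lowest, at 2.04 TPM in replicate 1 and 0.60 TPM in replicate 2, from 216 and 62 counts. Replicate 1 was thus high for Psmb5 and low for Psmb2, Psmb3 and Psmb4. The coefficient of variation of mean TPM, the SD over subunits divided by their mean, was 73.2% over the beta ring and 32.7% over the alpha ring. Over both rings it was 53.3%, with Psma3 12.3-fold above Psmb5. Assembled cores hold each of these subunits in equal number.

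Psmb5 (ENSMUSG00000022193) lies on chromosome 14 (chr14:54614119-54618022, minus strand). Its promoter window is shown because it is the catalytic subunit of lowest level. Capitals mark matches, on either strand, to CCAAT, to CCGGAAG, to TGCGCA (part of the NRF1 site) and to AAGATGGC (YY1). Also marked are the interferon-stimulated element (GAAA, 2 bases, GAAA) and TTCNNNGAA (the STAT-type GAS element). This window held none of these. It did hold the loose form TGANNNNGC, which is not marked:
Psmb5 promoter window, chr14:54617946-54618245, minus strand: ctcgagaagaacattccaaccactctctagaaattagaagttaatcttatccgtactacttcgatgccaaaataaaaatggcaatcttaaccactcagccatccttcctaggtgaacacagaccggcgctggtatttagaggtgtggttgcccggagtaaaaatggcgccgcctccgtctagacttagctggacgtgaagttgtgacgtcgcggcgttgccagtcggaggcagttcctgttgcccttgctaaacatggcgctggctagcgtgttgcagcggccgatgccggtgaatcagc

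The regulatory particle was expressed throughout. All 17 subunits that met the name rule reached 1 TPM in each library, and their median was 9.15 TPM in replicate 1 and 7.42 TPM in replicate 2. The coefficient of variation of their mean levels was 46.2%, and the highest was 6.02-fold above the lowest. For scale, the same measure was 51.1% over the 8 subunits of the CCT chaperonin and 132.6% over 9 subunits of the COP9 signalosome, a relative of the lid.

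The 6 ATPases of the base ran from Psmc3, at 13.43 TPM in replicate 1 and 19.47 TPM in replicate 2, to Psmc5, at 4.47 TPM in replicate 1 and 5.20 TPM in replicate 2. Psmc6 was second in mean level (12.86 and 10.44 TPM in replicates 1 and 2). Psmc1 (6.01 and 6.16), Psmc4 (6.5 and 5.11) and Psmc2 (6.91 and 3.24) had means between 5.08 and 6.09 TPM. Psmc2 was above Psmc1, Psmc4 and Psmc5 in replicate 1 and below all of them in replicate 2. The 3 non-ATPase subunits of the base that met the name rule were all above the median ATPase in both libraries. Adrm1, a further subunit that the rule leaves out, was below that median in both, at 3.21 TPM in replicate 1 and 2.57 TPM in replicate 2. Psmd4, a ubiquitin receptor, had 14.84 TPM in replicate 1 and 12.58 TPM in replicate 2, and the scaffold Psmd2 had 11.02 and 9.06. Psmd1, the other large scaffold, had 11.20 TPM in replicate 1 and 7.42 TPM in replicate 2.

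In the lid, Psmd13 was highest at 22.97 TPM in replicate 1 and 10.50 TPM in replicate 2, though its deposited intervals reached 36.8 TPM in replicate 1 and 14.96 TPM in replicate 2 at their upper ends. Psmd3, a structural subunit, was lowest at 3.15 TPM in replicate 1 and 2.41 TPM in replicate 2. Psmd14, the deubiquitinase, stood in the middle at 8.83 TPM in replicate 1 and 8.5 TPM in replicate 2. It was 2.54-fold and 2.68-fold above Cops5, the corresponding enzyme of the COP9 signalosome, in replicates 1 and 2. The remaining lid subunits were Psmd6 (10.44 and 10.09 TPM), Psmd11 (9.15 and 7.82), Psmd12 (9.77 and 6.74), Psmd8 (8.85 and 4.37) and Psmd7 (4.81 and 4.19), each given for replicate 1 and then replicate 2. Scaled counts of the 17 regulatory particle subunits differed between libraries by log2 ratios from -0.90 to 0.47.

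Assembly chaperones help to build the particle and then leave it. Those that met the name rule were lower in median than the subunits. Median levels over the 7 were 1.75 TPM in replicate 1 and 1.73 TPM in replicate 2, against 8.85 and 7.42 TPM over the 31 standard subunits. Psmd5, a chaperone of the base, was the exception among the 7, at 6.19 TPM in replicate 1 and 6.79 TPM in replicate 2. Psmd9 had 1.75 TPM in replicate 1 and 1.73 TPM in replicate 2, and Psmd10, also called gankyrin, had 1.11 and 2.00.

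The 4 core chaperones that met the name rule, Psmg1 to Psmg4, did not reach 1 TPM in both libraries in any case. Pomp, a core chaperone that the rule leaves out, did, at 10 TPM in replicate 1 and 6.42 TPM in replicate 2. Psmg4 had 4.77 TPM in replicate 1 and 0.34 TPM in replicate 2, from 251 and 19 counts. Psmg3, its partner, had 2.09 TPM in replicate 1 and 0.42 TPM in replicate 2, and Psmg2 had 0.94 and 2.03. Psmg1, the partner of Psmg2, had 1.33 TPM in replicate 1 and 0.68 TPM in replicate 2. Replicate 1 was high for 3 of the 4 and low for Psmg2, so no order among them held in both libraries.

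Immunoproteasome subunits did not stand in 1 relation to the subunits they replace. Psmb8 was higher than Psmb5 in both libraries, whereas Psmb9 was lower than Psmb6 and Psmb10 was far lower than Psmb7. Psmb8 had 3.87 TPM in replicate 1 and 2.29 TPM in replicate 2, against 2.04 and 0.60 TPM for Psmb5. The ratio was 1.90-fold in replicate 1 and 3.82-fold in replicate 2, a mean log2 ratio of 1.43 ± 0.71 (SD, n = 2). The intervals of the 2 genes did not overlap in either library. Each interval belongs to 1 library and does not cover the spread between libraries. Those of Psmb5 did not overlap between the replicates, at 1.77 to 2.31 TPM in replicate 1 and 0.46 to 0.75 TPM in replicate 2. Psmb9 had 2.84 TPM in replicate 1 and 2.85 TPM in replicate 2, against 6.94 and 5.87 TPM for Psmb6. It was 2.44-fold lower in replicate 1 and 2.06-fold lower in replicate 2, a mean log2 ratio of -1.17 ± 0.17 (SD, n = 2). Most Psmb9 TPM came from a transcript of 433 bases that held 22.4% of the gene's counts in replicate 1 and 36.9% in replicate 2. Psmb10 had 0.59 TPM in replicate 1 and 0.19 TPM in replicate 2, from 101 and 31 counts, against 15.56 and 8.59 TPM for Psmb7. It was 26.4-fold lower in replicate 1 and 45.2-fold lower in replicate 2, a mean log2 ratio of -5.11 ± 0.55 (SD, n = 2).

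**Figure D3:**
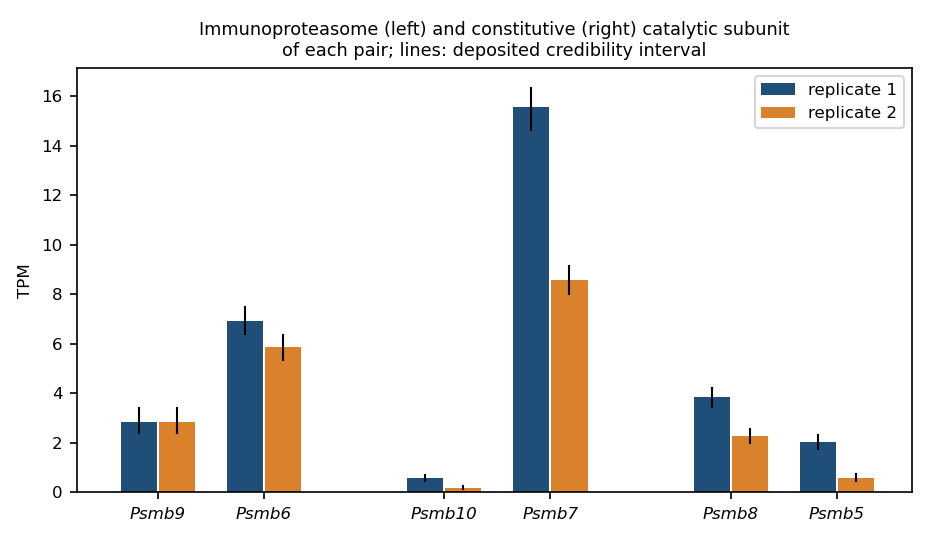
Levels in TPM of each immunoproteasome subunit and, to its right, the constitutive subunit it replaces, as bars for replicate 1 (dark) and replicate 2 (orange) with the deposited credibility interval as a line. Psmb9 and Psmb10 lie below their counterparts in both libraries and Psmb8 lies above Psmb5, which is itself the lowest constitutive catalytic subunit.

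Leukocytes carry immunoproteasomes, and their markers were present in these libraries. The 13 granulocyte markers summed to 1247 TPM in replicate 1 and 635 TPM in replicate 2, led by S100a8 (557 and 253 TPM). The 11 monocyte and macrophage markers summed to 143 TPM in replicate 1 and 90.6 TPM in replicate 2, led by Lyz2 (103 and 62.4 TPM), with Cd14 at 0 in replicate 1. B cell markers summed to 39.4 and 22.1 TPM in replicates 1 and 2, and Vpreb1 was at 0 in replicate 1. T and NK cell markers summed to 10.4 and 4.70 TPM in replicates 1 and 2, with Cd5 and Cd8a at 0 in replicate 1 and Cd3d at 0 in replicate 2. On TPM scaled to nuclear protein-coding genes alone, the granulocyte sum was 10038 in replicate 1 and 8487 in replicate 2, and the red cell sum was 223686 and 172521. The part of these cells in the immunoproteasome levels was not tested, and in bulk RNA a few cells with much of a transcript cannot be told apart from many with little.

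Psmb8 and Psmb9 lie close together on chromosome 17 within the major histocompatibility region, with 9956 bases between them. Psmb9 (chr17:34181987-34187764, minus strand) overlaps an exon of Tap1, the peptide transporter gene, on the opposite strand, and Psmb8 (ENSMUSG00000024338, chr17:34197721-34201454, plus strand) overlaps Gm20496. Whether counting used the strand of reads is not given in the sources used here, so overlapping reads cannot be assigned with certainty. Tap1 had 2.89 TPM in replicate 1 and 2.78 TPM in replicate 2, within 1.03-fold of Psmb9 in both. Without length correction Tap1 was the higher, with log2 ratios of 1.72 in replicate 1 and 1.36 in replicate 2. Of 11 genes of antigen presentation and the interferon response, 7 reached 1 TPM in both, led by B2m, H2-D1 and H2-K1. B2m, the light chain of class I molecules, had 123 TPM in replicate 1 and 70.6 TPM in replicate 2, whereas Nlrc5, the class I transactivator, had 0.56 and 0.20. The promoter window of Psmb8 is shown because it was the immunoproteasome gene of highest mean level, although Psmb9 was higher in replicate 2. Its capitals mark the 1 match among the 6 strings, a GAS element, which occurs in 3 of 45 members' windows, a share of 6.67%, against 7.69% of windows of protein-coding genes. The window belongs to a start site inside the annotated gene:
Psmb8 promoter window, chr17:34197945-34198244, plus strand: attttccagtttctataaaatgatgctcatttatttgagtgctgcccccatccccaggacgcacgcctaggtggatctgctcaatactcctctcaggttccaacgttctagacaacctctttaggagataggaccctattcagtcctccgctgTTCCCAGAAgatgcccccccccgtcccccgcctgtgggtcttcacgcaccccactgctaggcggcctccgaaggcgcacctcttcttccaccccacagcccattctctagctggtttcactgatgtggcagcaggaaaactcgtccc

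The interferon-stimulated element, 2 runs of GAAA with 2 bases between them, was in 0 of 3 immunoproteasome windows and in 5 of 45 members' windows, those of Psmb3, Psmd4, Psmd9, Psme1 and Psmg4. That share was 11.1%, against 3.35% of windows of protein-coding genes. The windows of Psmb8 and Psmb9 lie wholly inside the annotated genes, so sequence before the annotated start of these genes was not searched.

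Tissue-specific core subunits were at or near 0. Psma8, the alpha subunit of germ cells, had 0 counts in replicate 1 and 32 counts in replicate 2, or 0.14 TPM. A count of 0 allows up to 3 counts, which is 0.0125 TPM in replicate 1 for this gene. Psma8 was at least 869.9-fold lower than Psma7 in replicate 1 and 70.7-fold lower in replicate 2. Psmb11, the beta subunit of the thymic cortex, had 0 counts in both libraries, at least 447-fold lower than Psmb5 in replicate 1 and at least 122-fold lower in replicate 2, on a limit of 3 counts per library. Psmb11 is the neighbour of Psmb5, with 3410 bases between the 2 genes. These limits cover counting error only.

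Among the activators, Psme3 was the most abundant of all 50 genes in gene TPM. On protein-coding transcripts alone it led in replicate 1 only, and in replicate 2 it had 13.2 TPM, against 16.96 TPM for Psmc3. Psme3 encodes PA28 gamma, a nuclear activator that opens the core without ATP or ubiquitin. It had 41.34 TPM in replicate 1 and 20.51 TPM in replicate 2, a mean of 30.9 ± 14.7 (SD, n = 2), from 11614 and 5446 counts. In rank it was gene 378 of nuclear protein-coding genes in replicate 1 and gene 509 in replicate 2. Scaled counts differed by 1.31-fold between the libraries, less than TPM did. Psme3 was 4.77-fold above Psme1 in replicate 1 and 7.02-fold above it in replicate 2, a mean log2 ratio of 2.53 ± 0.39 (SD, n = 2). It lies on chromosome 11 (ENSMUSG00000078652, chr11:101316213-101323537, plus strand). Its promoter window is shown because it led the set. Capitals mark the same 6 strings: CCGGAAG on each strand, TGCGCA and CCAAT in reverse:
Psme3 promoter window, chr11:101315963-101316262, plus strand: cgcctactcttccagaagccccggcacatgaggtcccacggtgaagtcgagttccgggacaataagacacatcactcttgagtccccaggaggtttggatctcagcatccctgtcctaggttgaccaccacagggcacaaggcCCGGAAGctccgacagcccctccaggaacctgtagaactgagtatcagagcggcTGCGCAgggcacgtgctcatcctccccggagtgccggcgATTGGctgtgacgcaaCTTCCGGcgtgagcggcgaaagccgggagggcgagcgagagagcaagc

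Psme1 and Psme2 encode the alternating subunits of the interferon-inducible PA28 ring and lie 5911 bases apart on chromosome 14. Their order differed between libraries. Psme1 had 8.66 TPM in replicate 1 and 2.92 TPM in replicate 2, against 6.01 and 8.63 TPM for Psme2. The log2 ratio of Psme1 over Psme2 was 0.53 in replicate 1 and -1.56 in replicate 2, so the pair gave no direction beyond the replicate spread in gene TPM. On protein-coding transcripts alone Psme1 was lower in both, at 3.0 TPM in replicate 1 and 2.06 TPM in replicate 2, against 5.89 and 5.25 TPM for Psme2. Psme1 overlaps an exon of Emc9 on the opposite strand. Psme2b, named as a relative of Psme2, had 0.36 TPM in replicate 1 and 0.07 TPM in replicate 2. Its expected counts of 35.7 and 6.49 were fractional, as they are where a read matches more than 1 transcript, and its level is uncertain.

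Psme4, which encodes the nuclear activator PA200, had 5.55 TPM in replicate 1 and 7.04 TPM in replicate 2. Psmf1, which encodes the proteasome inhibitor PI31, had 7.51 TPM in replicate 1 and 6.98 TPM in replicate 2. In gene TPM neither stood in a stable relation to Psme1. The log2 ratio of Psme4 over Psme1 was -0.64 in replicate 1 and 1.27 in replicate 2, and that of Psmf1 over Psme1 was -0.21 and 1.26. On protein-coding transcripts alone both exceeded Psme1 in both libraries, Psme4 at 5.55 TPM in replicate 1 and 5.79 TPM in replicate 2 and Psmf1 at 3.65 and 3.24 TPM. Psmc3ip fits the name rule only because it was named for an ATPase it binds. It encodes a recombination protein, not a proteasome subunit, and had 3.87 TPM in replicate 1 and 1.04 TPM in replicate 2.

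Differences between the libraries were measured as log2 ratios of scaled counts, replicate 1 over replicate 2, for genes whose mean count was 50 or more. Of 47 members that met this minimum, Psmc3ip among them, 4 were 2-fold or more higher in replicate 1, against 10.8% of 10403 genes. Another 5 were 2-fold or more higher in replicate 2, against 10.3% of all genes. Together 9 of 47 is near the background. Those higher in replicate 1 were Psmg4 (log2 ratio 3.0), Psmg3 (1.79), Psmc3ip (1.63) and Psmb5 (1.10). Those higher in replicate 2 were Psmb3 (-2.65), Psmb2 (-1.91), Psmg2 (-1.75), Psmd10 (-1.48) and Psmb4 (-1.22). Count depth went with these differences. In the band of 50 to 300 mean counts 7 of 10 members were 2-fold apart, against 42.8% of all genes there. In the band of 300 to 1000 counts it was 2 of 11, against 12.7%, and from 1000 to 12000 counts it was 0 of 26, against 2.53%.

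**Figure D4:**
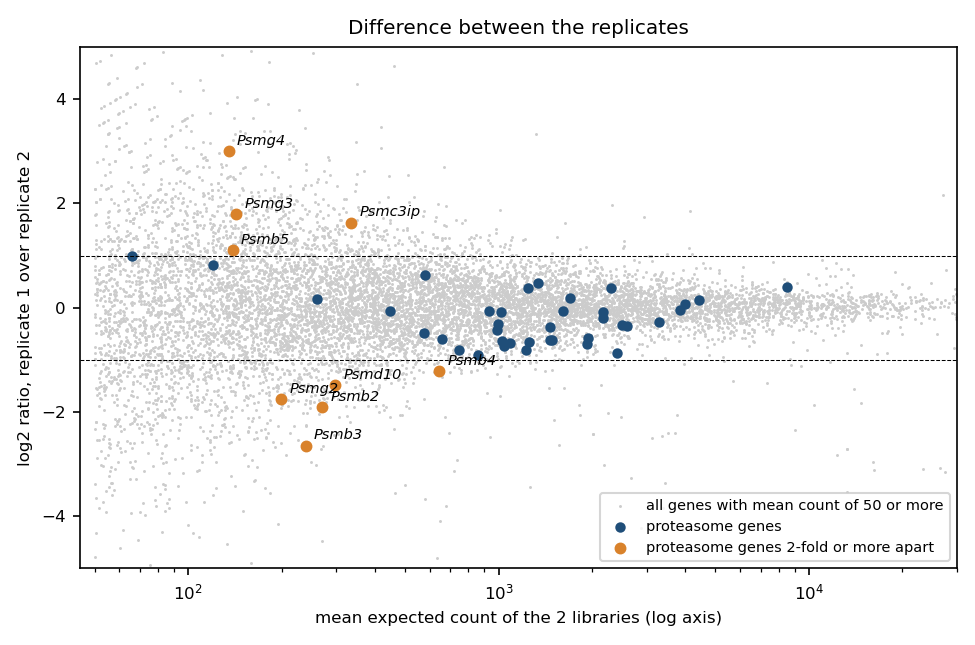
Log2 ratio of scaled counts, replicate 1 over replicate 2, against the mean expected count (log axis) for genes whose mean count was 50 or more (grey) and for the proteasome genes (blue, or orange and named where 2-fold or more apart, dashed lines); 298 of the 10403 genes lie outside the plotted range. The named genes have fewer than 1000 counts, and the members with more lie within 2-fold.

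The members leaned towards replicate 2. Their median log2 ratio was -0.32, against 0.028 over all genes tested. Of the 47, 32 were higher in replicate 2 and 15 in replicate 1. Over all 10403 genes tested, 5002 were higher in replicate 2 and 5401 in replicate 1. All 7 alpha subunits were higher in replicate 2 after scaling, with ratios from -0.80 to -0.07. In the regulatory particle 13 of 17 were higher in replicate 2, and among the activators 1 of 4 was. The sign of this lean turns on the scale. With deposited TPM the median was 0.24, while the median of all genes was 0.66, so relative to all genes the members were still lower in replicate 1, by -0.43. The 2 libraries also differed in depth and in the labelled size range, 209 to 891 bases in replicate 1 and 186 to 747 in replicate 2, and the part of these in the ratios was not tested.

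Transcript levels showed which RNA of each gene was counted. The tables hold 224 transcripts of the 50 genes. Protein-coding transcripts held 80.2% of the members' TPM in replicate 1 and 78.1% in replicate 2, against 85.6% and 84.5% over nuclear protein-coding genes. Retained-intron transcripts held 11.6% and 13.8% in replicates 1 and 2, against 8.44% and 9.51%. The library type is total RNA, which also holds unspliced RNA of the nucleus. In 34 members 1 transcript held 60% or more of the gene's TPM in both libraries, and in 14 it did not. Psma8 and Psmb11 were at 0 in at least 1 library and are in neither count.

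Psma3 and Psmd13, the highest genes of the alpha ring and of the lid, owed most of their level to transcripts not classed as protein coding. Protein-coding transcripts of Psma3 held 30.3% of its TPM in replicate 1 and 9.25% in replicate 2, or 6.05 and 1.16 TPM. Retained-intron transcripts held 41.2% and 52.7%, and those annotated for nonsense-mediated decay held 28.5% and 38.0%. On protein-coding transcripts alone Psma3 was thus the lowest alpha subunit in both libraries. For Psmd13 the protein-coding share was 40.9% in replicate 1 and 38.3% in replicate 2, or 9.39 and 4.02 TPM, and the gene overlaps an exon of Sirt3 on the opposite strand. The protein-coding share was also low for Psmf1, at 48.5% and 46.4%, and for Psmd6, at 57.7% and 61.5%. For Psme1 it was 34.6% in replicate 1 and 70.8% in replicate 2. In Psmc3ip it was 16.8% in replicate 1 and 0% in replicate 2.

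In other genes the main transcript held a small share, or a different share in each library. Psme4-201, of 6491 bases, held 100% of Psme4 TPM in replicate 1 and 43.3% in replicate 2, yet 100% and 92.4% of its counts. The rest of its TPM in replicate 2 rested on few of its counts. Psmc5-201 held 100% of Psmc5 in replicate 1 and 51.3% in replicate 2, where a transcript annotated for nonsense-mediated decay held the other 48.7%. Psmc3-210 held 55.1% and 59.2% of Psmc3, and Psmd4-202 held 55.7% and 44.9% of Psmd4, in replicates 1 and 2. Psmd11-214 held 36.5% and 15.6% of Psmd11, in replicates 1 and 2. Psmb8-203 held 67.7% of Psmb8 in replicate 1 and 55.9% in replicate 2. Psmb9-202, of 433 bases, held 76.4% and 62.8% of Psmb9 TPM in replicates 1 and 2, yet 22.4% and 36.9% of its counts. The retained-intron transcript Psmb9-201 had 236.5 counts in replicate 1 and 1.42 in replicate 2. Psmg3-202 held 88.0% in replicate 1 and 17.1% in replicate 2, and Psmg1-201 held 100% and 0%. The last 2 rest on 43 and 62 counts in replicate 2. In Psme3, Psme3-201 held 61.8% and 62.3%, and the processed transcript Psme3-203 held 15.15 TPM in replicate 1 and 6.59 TPM in replicate 2.

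**Figure D5:**
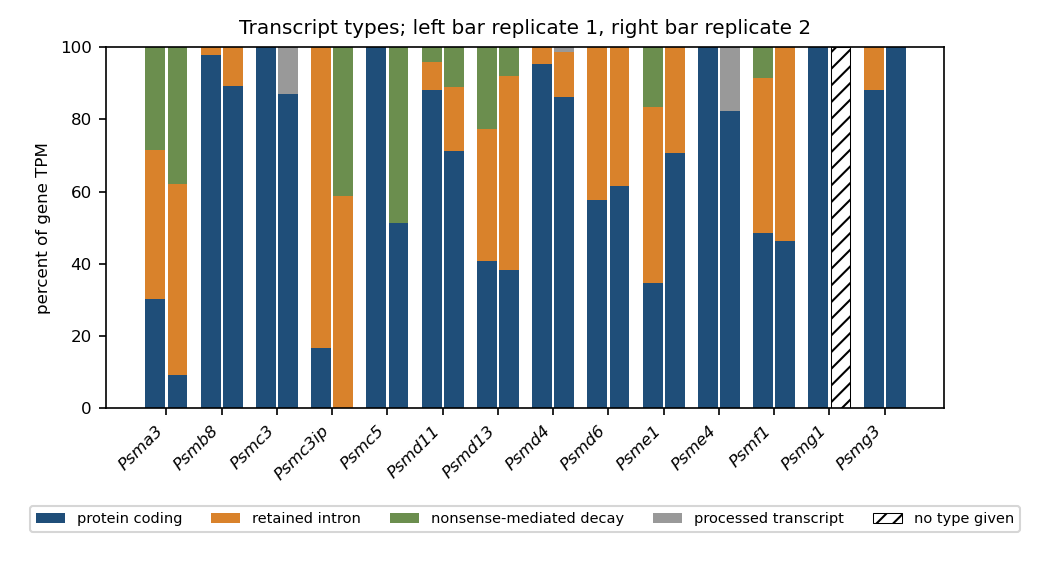
Percent of each gene's TPM held by annotated transcript types, for the 14 members in which the main transcript held under 60% in either library; the left bar of each pair is replicate 1, the right bar replicate 2, and hatching marks transcripts with no type given. Psma3, Psmd13, Psmf1 and Psmc3ip are mostly of other types than protein coding in both libraries, and Psmg1 in replicate 2 rests on transcripts with no type given.

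Partners of the proteasome that the name rule leaves out were expressed at similar levels. Of 17 found, 15 reached 1 TPM in both, and the median of the 17 was 6.58 TPM. Vcp, the unfolding ATPase, had 16 TPM in replicate 1 and 14.80 TPM in replicate 2, and Fbxo7, a ubiquitin ligase subunit that binds the inhibitor PI31, had 16.02 and 14.39. The ubiquitin genes Ubb and Rps27a were each higher than every standard subunit in both libraries. Ubb had 64.3 TPM in replicate 1 and 44.6 TPM in replicate 2, and Rps27a had 33.7 and 29.3.

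All 12 regulators of proteasome genes examined reached 1 TPM in both. Nfe2, an erythroid factor of the same family as Nfe2l1, was highest at 49.31 TPM in replicate 1 and 27.67 TPM in replicate 2. Foxo3 followed at 24.14 and 18.33 TPM, and Nfyb, a subunit of the factor that binds CCAAT, at 10.88 and 9.42 TPM. Nfe2l1, the factor that raises proteasome genes when the proteasome is inhibited, had 4.97 TPM in replicate 1 and 2.74 TPM in replicate 2, against 8.42 and 5.11 TPM for Nfe2l2, the oxidative stress factor. The log2 ratio of Nfe2l1 over Nfe2l2 was -0.83 ± 0.10 (SD, n = 2). Per count rather than per length it was 0.04, so the order of these 2 genes holds per length only.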

How the data were processed

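Total RNA depleted of ribosomal RNA was measured in 2 libraries of 1 group. The authors deposited expected counts, TPM, posterior mean TPM and transcript percent for genes and transcripts on mm10, and the notes deposited with the tables name GENCODE M4. The aligner, the quantifier and any use of strand were not given in the sources used here. Because TPM divides by effective length, a short RNA takes a large part of the TPM sum from few reads, which lowers the TPM of other genes. Symbols, types and coordinates came from GENCODE M21 by Ensembl identifier, and promoters from RefSeq on GRCm38.p6. The members, gene lists, pairs, strings and alternatives were chosen with earlier results of these data known. Every member was named, with values in both libraries. Values of some listed genes outside the rule are not reported here.

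Expected counts were rounded, scaled by TMM in edgeR 4.0.16 (R 4.3.3) and compared with a prior count of 0.5; the step was tested on simulated data. DESeq2 1.42.0 gave alternative size factors. Python 3.11.15, pandas 2.3.3, numpy 2.4.6 and matplotlib 3.10.9 were used. Spike-in and numbered rows, with 0 and 25 counts, were left out. Of 124 listed genes, 121 were found, and AI314180, Paaf1 and Shfm1 were not. Ratios use TPM within a library. A count of 0 was set to a limit of 3 counts. No test compared groups. Alternatives were another length or transcript scale, other scaling, filters, prior count and detection limits, and leaving out each library.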

Additional observations from a re-analysis of the deposited data

How the results depend on the processing

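Of 127 recomputed values that answer a comparison, 105 stayed within the replicate spread or within 1.5-fold for a count. The members' median ratio between replicates was judged by a fixed cut-off instead. Part of the 105 was fixed in advance. Rescaling to nuclear protein-coding TPM cannot change a gene pair ratio within a library. Leaving out 1 of 2 libraries always moves a mean log2 ratio by less than their SD. The 105 is therefore no measure of how stable the results are. Median level and the number of members at 10 TPM or more depended on the scale: 66.2 and 39 when rescaled to nuclear protein-coding TPM, 21.4 and 32 with counts scaled to the library total without length correction, and 4.73 TPM and 5 with protein-coding transcripts only, against 6.35 TPM and 8. The number at 1 TPM or more was 27 at a limit of 5 TPM. The coefficient of variation of the regulatory particle was 50.1% with posterior mean TPM and 49.5% without length correction. Leaving out 1 library gave 8 to 13 members at 10 TPM and a coefficient of 48.7% to 52.7%. Without length correction the log2 ratios were 3.93 for Psme3 over Psme1, 3.02 for Psme4 over Psme1, 2.64 for Psmf1 over Psme1, 1.54 for Tap1 over Psmb9, 0.99 for Psmd14 over Cops5, and 0.041 for Nfe2l1 over Nfe2l2, a reversal. With protein-coding transcripts only they were -0.98 for Psmb9 over Psmb6, -0.66 for Nfe2l1 over Nfe2l2 and 1.59 for Psmd14 over Cops5. The cause of these changes was not tested. The 3 immunoproteasome ratios kept their direction in every alternative run. With the deposited TPM ratio the members' median between replicates reversed to 0.24 and 10 of 47 members were 2-fold higher in replicate 1, against 31.5% of all genes on that scale. Centred on all genes, that ratio left 4 higher in replicate 1 and 8 in replicate 2.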
